A study of Mus musculus with 6 samples.

Results

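The genes described here encode the transcription factors of 15 families that lay out the body plan of the embryo apart from the Hox genes, namely Tbx, Pax, Lhx, Dlx, Msx, Irx, Meis, Pbx, Meox, Alx, Prrx, En, Pitx, Shox and the sine oculis family of Six4. Members were chosen by symbol alone, as a family name followed by a number, and 71 of the 55401 genes measured matched. The series measured RNA in 6 cell lines derived in culture from mouse tumours. Tumours of C57BL/6 hosts labelled WT gave 3 lines (WT2, WT4 and WT6), and tumours of C57BL/6 hosts labelled Rag1KO gave the other 3 (KO1, KO3 and KO7). The Rag1 protein cuts DNA to assemble the antigen receptors of T and B cells, so the design compares tumour cells grown with and without an adaptive immune system. The labels give no tumour type, host sex or age and do not tie lines to animals, and p-values here reflect no more than the scatter among these 6 lines, which may be technical.

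Patterning factors bind DNA through a homeodomain, a paired domain or a T-box and act in overlapping territories, so that the combination present in a cell records where in the embryo its lineage arose. In mesenchyme, the connective tissue of the embryo, Prrx and Shox genes mark limb and head mesenchyme. Irx, En and Msx genes mark regions along the body axes, and Meis and Pbx proteins serve as DNA-binding partners for many other homeodomain proteins. Fibroblasts of the adult retain part of this code in culture. All values below are normalized counts, that is reads divided by the size factor of their library. All 8 fibroblast markers had reads in every group, and they summed to 303318 to 1803221 normalized counts in lines labelled WT and to 1107178 to 2037471 in lines labelled Rag1KO, whereas the lymphocyte markers Cd3e, Cd8a and Ms4a1 had 0 reads in all 6 lines. Of the 6 epithelial markers only Epcam had 0 reads everywhere, and WT4 was highest for Cdh1 (158 normalized counts, 4.63 to 15.3 elsewhere), Krt18 (126, 0 to 4.03 elsewhere) and Krt8 (58.9, 0 to 41.3 elsewhere). Krt14 stayed at 3.86 normalized counts or less. Krt5 had 0 reads in the lines labelled WT and 14.4, 9.27 and 3.88 normalized counts in KO1, KO3 and KO7.

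Libraries held 55409583 to 62998051 reads, and 0 reads were taken to allow up to 3, equal to between 2.64 and 3.48 normalized counts by library, which covers counting error only. Rag1 itself had reads only in the lines labelled Rag1KO. It had 39.3, 126 and 177 normalized counts in KO1, KO3 and KO7 and 0 reads in the lines labelled WT, and whether the reads cover a deleted stretch cannot be seen at the level of genes, so lines are called by their labels throughout. WT2 and WT4 expressed Xist at 59775 and 32733 normalized counts and the Y-linked genes Ddx3y, Kdm5d and Uty at 2.01 or less, whereas WT6 and the 3 lines labelled Rag1KO expressed these at 683 to 5332 with Xist at 15.3 or less. Outside WT6, sex-linked expression and the group label cannot be told apart. The Y-linked gene Eif2s3y, at 0 in all lines labelled WT, was the only gene called between the groups by limma. WT6 stood apart from the other lines. It held 206 normalized counts of the collagen gene Col1a1 against 478322 to 1051710 elsewhere and 228 of the smooth muscle actin gene Acta2 against 57125 to 275990. The fibroblast markers Thy1 (0.88 against 29802 to 81487), Pdgfrb (8208 against 29021 to 67654) and Col1a2 (151806 against 434020 to 684707) were also lowest in WT6. By contrast the fibroblast markers Pdgfra, at 16592, Col3a1, Dcn and Lum were within the range of the others. The 6 pericyte and smooth muscle markers summed to 6827 (WT6) to 150105 in lines labelled WT and to 69988 to 471115 in lines labelled Rag1KO. Of the 6827 in WT6, 6476 were Cspg4, which was highest there (4.63 to 1018 elsewhere). Rgs5, at 117 in WT6, was within the range of the others, and Cnn1 had 0 reads in WT6. Summed over the other lists, the highest lines reached 2950 normalized counts for skeletal muscle (WT6, of which 2948 were Chrna1), 1483 for endothelium, 347 for epithelium, 1333 for Schwann cells (KO7), 2254 for melanocytes, 4217 for bone and cartilage, 1780 for leukocytes and 3.88 for lymphocytes. Myod1, Myog and Dct had 0 reads in every line. The part of these differences in the results below was not tested.

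Among the patterning genes, 24 had more than 3 reads in all 6 lines, 25 in some lines and 22 in none. Per line, 36 had more than 3 reads in WT2, 36 in WT4, 30 in WT6, 43 in KO1, 35 in KO3 and 39 in KO7. The silent set included the limb genes Pitx1, Tbx4 and Tbx5, which specify hindlimb and forelimb. It also held the kidney and nervous system genes Pax2, Lhx1 and Lhx5, the eye genes Pax6 and Six6, the muscle stem cell gene Pax7 and the T cell factor gene Tbx21. Of the 71 genes, 9 had 0 reads in every library: Irx4, Lhx1, Lhx5, Pax4, Pax7, Pitx1, Six6, Tbx21 and Tbx22. The other 13 silent genes (Dlx6, Irx6, Lhx3, Lhx4, Pax1, Pax2, Pax6, Pitx3, Six2, Tbx1, Tbx4, Tbx5 and Tbx19) had at most 3 reads in any library. Alx1, En2, Lhx2, Msx3, Pax8 and Tbx10 passed 3 reads in 1 to 3 lines without exceeding 8.62 normalized counts.

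For 13 of the 37 members with at least 100 normalized counts in 1 line, 1 line lay at least 8-fold from every other line on the log2(normalized count + 1) scale. Shares over all genes are given below by line and direction. Pax5, Tbx2, Tbx20, Meox2 and Alx4 reached 100 normalized counts only through the line in which they were high, so nothing is read from this count. RefSeq promoter sequences (GRCm38.p6, the build named mm10 by the submitters, 250 bases before to 50 after the start) were at hand for 8 of these 13. Shown are En1, Irx2 and Msx2, which were silent in WT6, Tbx20 and Pax5, which were high in WT6, Meox2, which was read in WT4 only, and, for comparison, Prrx1, which was abundant in every line. Each is printed 5′ to 3′ on the gene's strand, with CG dinucleotides in capitals.
En1, chr1:120602237-120602536, plus strand: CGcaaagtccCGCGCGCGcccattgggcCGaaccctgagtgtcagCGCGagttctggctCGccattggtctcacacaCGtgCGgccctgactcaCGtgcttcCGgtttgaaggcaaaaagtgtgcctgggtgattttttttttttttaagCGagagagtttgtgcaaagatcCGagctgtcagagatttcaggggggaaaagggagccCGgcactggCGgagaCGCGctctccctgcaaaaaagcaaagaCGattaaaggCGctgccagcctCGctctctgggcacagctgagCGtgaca
Irx2, chr13:72628570-72628869, plus strand: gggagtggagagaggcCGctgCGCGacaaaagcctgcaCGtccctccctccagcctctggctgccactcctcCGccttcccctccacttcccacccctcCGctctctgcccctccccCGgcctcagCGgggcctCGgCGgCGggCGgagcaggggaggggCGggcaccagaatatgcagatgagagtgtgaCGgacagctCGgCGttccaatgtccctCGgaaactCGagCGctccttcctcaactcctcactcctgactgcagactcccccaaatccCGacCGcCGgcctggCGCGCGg
Msx2, chr13:53472731-53473030, minus strand: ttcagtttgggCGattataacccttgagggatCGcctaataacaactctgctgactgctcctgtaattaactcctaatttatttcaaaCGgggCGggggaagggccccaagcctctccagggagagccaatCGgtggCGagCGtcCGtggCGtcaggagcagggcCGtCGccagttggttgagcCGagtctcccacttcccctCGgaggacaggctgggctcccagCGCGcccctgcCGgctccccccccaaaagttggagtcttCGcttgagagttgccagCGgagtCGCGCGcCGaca
Tbx20, chr9:24774254-24774553, minus strand: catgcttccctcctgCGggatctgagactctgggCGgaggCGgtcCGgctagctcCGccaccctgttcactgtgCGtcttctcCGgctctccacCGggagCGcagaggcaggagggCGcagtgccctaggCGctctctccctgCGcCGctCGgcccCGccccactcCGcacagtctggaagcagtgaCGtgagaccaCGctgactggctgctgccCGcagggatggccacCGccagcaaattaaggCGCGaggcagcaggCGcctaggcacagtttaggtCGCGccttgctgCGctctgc
Pax5, chr4:44710645-44710944, minus strand: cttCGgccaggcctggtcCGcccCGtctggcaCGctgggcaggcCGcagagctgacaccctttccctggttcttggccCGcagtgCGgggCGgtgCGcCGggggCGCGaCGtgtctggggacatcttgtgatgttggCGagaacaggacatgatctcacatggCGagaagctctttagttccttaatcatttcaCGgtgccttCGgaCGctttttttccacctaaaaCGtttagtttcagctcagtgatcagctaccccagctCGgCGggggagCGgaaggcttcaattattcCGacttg
Meox2, chr12:37108290-37108589, plus strand: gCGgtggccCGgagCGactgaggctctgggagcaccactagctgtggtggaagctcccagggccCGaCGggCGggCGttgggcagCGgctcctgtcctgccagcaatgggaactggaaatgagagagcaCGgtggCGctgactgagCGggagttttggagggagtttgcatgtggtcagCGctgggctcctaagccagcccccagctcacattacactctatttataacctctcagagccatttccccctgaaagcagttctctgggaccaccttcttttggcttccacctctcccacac
Prrx1, chr1:163313601-163313900, minus strand: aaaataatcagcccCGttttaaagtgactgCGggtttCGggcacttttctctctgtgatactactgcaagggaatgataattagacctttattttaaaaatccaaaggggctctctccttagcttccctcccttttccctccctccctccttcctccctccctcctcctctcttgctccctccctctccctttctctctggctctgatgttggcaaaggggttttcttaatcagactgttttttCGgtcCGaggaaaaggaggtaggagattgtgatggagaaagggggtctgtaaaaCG
En1, Irx2, Msx2, Tbx20 and Pax5 carry 22 to 26 CG dinucleotides in 300 bases, against 12 for Meox2 and 6 for Prrx1, and the median over all 32851 RefSeq promoters of that length was 7. Prrx1 does not stand for the members read in every line. The median was 16 over the 17 with a promoter sequence and more than 3 reads in all 6 lines, and Pbx2 and Dlx2 each had 29. A promoter was called CpG-rich at a GC content of at least 50% and an observed over expected CG ratio of at least 0.6. Of the 47 patterning genes with a promoter sequence, each taken with the 1 promoter nearest its annotated start, 30 were CpG-rich (63.8%), against 33.7% of all promoters. The latter share counts every promoter of a gene, 32851 for 27025 genes. By the number of lines in which the gene had more than 3 reads, CpG-rich promoters were 64.7% (11 of 17) for all 6 lines, 64.3% (9 of 14) for some and 62.5% (10 of 16) for none, so that silent and expressed members did not stand apart in this respect. Methylation was not measured here.

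Per kilobase of merged exons, Prrx1 was the most abundant member, at a mean of 2560 normalized counts per kilobase, followed by Tbx15 (2000) and Prrx2 (1060). Pbx2, Tbx18, En1, Meis3, Shox2 and Irx1 were also among the upper 10, at 580, 487, 438, 343, 342 and 303 normalized counts per kilobase. Prrx1, a homeobox gene of limb, head and wound mesenchyme (ENSMUSG00000026586.16, chromosome 1, 163245119 to 163313710, mm10), had 25839, 28409 and 28890 normalized counts in WT2, WT4 and WT6 and 23487, 24864 and 38194 in KO1, KO3 and KO7. The groups overlapped, and WT6, in which Col1a1 was so low, lay within the range of the others. Its relative Prrx2 had 1808, 1626 and 793 normalized counts in WT2, WT4 and WT6 and 256, 3317 and 4620 in KO1, KO3 and KO7, with KO1 alone low. Shox2, needed for the proximal limb skeleton and the sinus node, had 1149, 519 and 684 normalized counts in WT2, WT4 and WT6 and 791, 1363 and 2280 in KO1, KO3 and KO7, and the groups again overlapped.

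**Figure D1:**
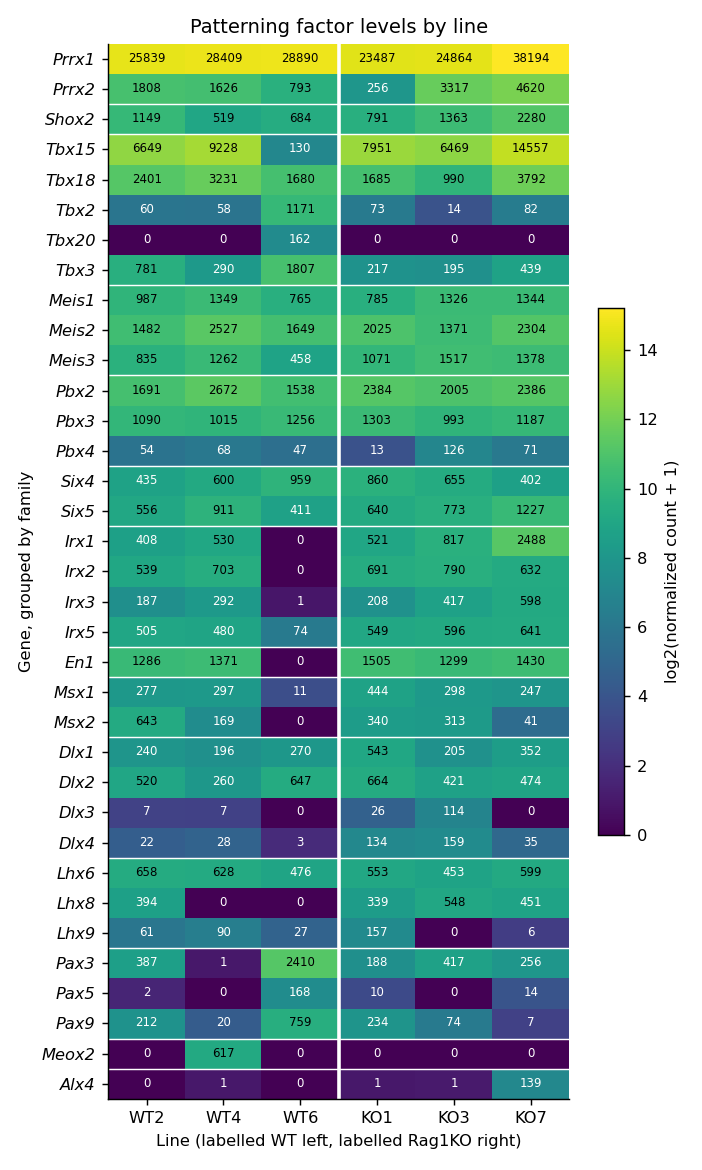
Normalized counts (numbers) and log2(normalized count + 1) (colour) of 35 of the 37 patterning genes that reached 100 normalized counts in at least 1 line, by line (columns) and grouped by family (rows). Prrx1, Meis2 and Pbx3 are even across columns, whereas the WT6 column is dark for Irx1, Irx2, Irx3, En1 and Msx2, which had 0 or 1 reads there.

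Pbx genes encode TALE homeodomain proteins that bind DNA together with Hox and Meis proteins. Pbx3 had 1090, 1015 and 1256 normalized counts in WT2, WT4 and WT6 and 1303, 993 and 1187 in KO1, KO3 and KO7, a 1.31-fold range over 6 lines. Pbx2 ranged from 1538 (WT6) to 2672 (WT4) normalized counts. The weakly expressed Pbx4, a gene best known from the testis, had 54.4, 67.6 and 46.6 normalized counts in WT2, WT4 and WT6 and 13.4, 126 and 70.7 in KO1, KO3 and KO7, with both extremes in lines labelled Rag1KO. Meis1, Meis2 and Meis3 stayed within 1.76-fold, 1.84-fold and 3.3-fold, and Meis3 had 835, 1262 and 458 normalized counts in WT2, WT4 and WT6 and 1071, 1517 and 1378 in KO1, KO3 and KO7, lowest in WT6. These Pbx and Meis genes were read in every line. Six4, a gene of muscle and sensory development on chromosome 12, ranged from 402 to 959 normalized counts. Six5, the most abundant of its family per length, had 556, 911 and 411 in WT2, WT4 and WT6 and 640, 773 and 1227 in KO1, KO3 and KO7. Six6, 155 kb from Six4, had 0 reads.

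The T-box genes divided by line. Tbx15 (ENSMUSG00000027868.11, chromosome 3, 99240381 to 99354259), required for skin pigment patterning and the shoulder skeleton, had 6649 and 9228 normalized counts in WT2 and WT4, 130 in WT6 and 7951, 6469 and 14557 in KO1, KO3 and KO7. WT6 was alone at the bottom, with 148 reads. Tbx18, its closest relative and a gene of somites, ureter mesenchyme and epicardium, kept 1680 normalized counts in WT6, between the 990 of KO3 and the 3792 of KO7. Tbx2 and Tbx3, related repressors that oppose senescence and act in limb and heart, went the other way. Tbx2 had 60.4 and 57.9 normalized counts in WT2 and WT4, 1171 in WT6 and 72.8, 13.9 and 82.3 in KO1, KO3 and KO7. Tbx3 had 781, 290 and 1807 normalized counts in WT2, WT4 and WT6 and 217, 195 and 439 in KO1, KO3 and KO7. For both genes WT6 was the highest line. Tbx20, a heart development gene, had 162 normalized counts in WT6 (184 reads) and 0 reads in the other 5 lines, so that it was at least 46.6-fold higher there, taking 3 reads as what a count of 0 allows. Tbx6, a gene of presomitic mesoderm, stayed at 13.2 to 97.3 normalized counts. The genes that neighbour Tbx2 and Tbx3 on their chromosomes, Tbx4 (44.5 kb away) and Tbx5 (148 kb away), did not follow, with at most 1 read in WT6 or any other line.

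The Irx genes, which divide the embryo and the limb bud into territories, were expressed in 5 lines and absent or lowest in WT6. Irx1 (chromosome 13, 71957921 to 71963723) had 408 and 530 normalized counts in WT2 and WT4, 0 in WT6 and 521, 817 and 2488 in KO1, KO3 and KO7. Irx2, on the same chromosome (72628820 to 72634198), had 539 and 703 normalized counts in WT2 and WT4, 0 in WT6 and 691, 790 and 632 in KO1, KO3 and KO7. WT6 was therefore at least 155-fold lower for Irx1 and 204-fold lower for Irx2 than the lowest of the other lines. Irx3, of the second Irx cluster on chromosome 8, had 187 and 292 normalized counts in WT2 and WT4, 0.88 (1 read) in WT6 and 208, 417 and 598 in KO1, KO3 and KO7. Irx5, also on chromosome 8, had 505 and 480 normalized counts in WT2 and WT4, 73.9 in WT6 and 549, 596 and 641 in KO1, KO3 and KO7. WT6 was the lowest line for all 4 genes. The third genes of the 2 clusters, Irx4 and Irx6, had at most 1 read in any line.

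En1, Msx1 and Msx2 were also lowest in WT6. En1 (ENSMUSG00000058665.8, chromosome 1, 120602418 to 120607992), which sets the ventral side of the limb and marks a lineage of skin fibroblasts that forms scars, had 1286 and 1371 normalized counts in WT2 and WT4, 0 in WT6 and 1505, 1299 and 1430 in KO1, KO3 and KO7. The 5 lines with reads lay between 1286 and 1505, and WT6 was at least 487-fold lower. Msx1, a repressor of differentiation under BMP control, had 277 and 297 normalized counts in WT2 and WT4, 11.4 in WT6 and 444, 298 and 247 in KO1, KO3 and KO7. Msx2 had 643 and 169 normalized counts in WT2 and WT4, 0 in WT6 and 340, 313 and 40.7 in KO1, KO3 and KO7. For both Msx genes WT6 was the lowest line and KO7 was next, and WT6 was at least 15.4-fold below KO7 for Msx2.

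Dlx1 and Dlx2, which pattern the jaws and forebrain and lie 9.43 kb apart on chromosome 2, were read in every line. Dlx1 had 240, 196 and 270 normalized counts in WT2, WT4 and WT6 and 543, 205 and 352 in KO1, KO3 and KO7. Dlx2 had 520, 260 and 647 in WT2, WT4 and WT6 and 664, 421 and 474 in KO1, KO3 and KO7, and for both genes the groups overlapped. Lhx6, a LIM homeobox gene of jaw mesenchyme and interneurons, had 658, 628 and 476 normalized counts in WT2, WT4 and WT6 and 553, 453 and 599 in KO1, KO3 and KO7, an even level with overlapping groups. Lhx8, which acts with Lhx6 in the jaws, had 394 normalized counts in WT2, 0 in WT4 and WT6 and 339, 548 and 451 in KO1, KO3 and KO7. Each line with reads was at least 117-fold above what 0 reads allow. Lhx9, a gonad and limb gene, had 61.4, 89.8 and 27.3 normalized counts in WT2, WT4 and WT6 and 157, 0 and 5.81 in KO1, KO3 and KO7.

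Pax3, Pax5 and Pax9 were highest in WT6. Pax3, which acts in neural crest and muscle progenitors, had 387, 0.966 and 2410 normalized counts in WT2, WT4 and WT6 and 188, 417 and 256 in KO1, KO3 and KO7. WT4 held 1 read, and WT6 lay above every other line. Pax9, a gene of the vertebral column, teeth and palate, had 212, 20.3 and 759 normalized counts in WT2, WT4 and WT6 and 234, 74.2 and 6.78 in KO1, KO3 and KO7. Pax5, best known as the identity factor of B cells, had 168 normalized counts in WT6 and at most 14.5 elsewhere, while the B cell marker Ms4a1 had 0 reads in WT6 and Cd79a 3.52 normalized counts. Other lines had genes of their own. Meox2, a homeobox gene of somites and vessels, had 617 normalized counts in WT4 and 0 reads in the other 5 lines, a difference of at least 177-fold. Alx4, of limb and skull mesenchyme, had 139 normalized counts in KO7 and at most 1.16 elsewhere. Meox1 was also highest in KO7, at 63.9 normalized counts against 0 to 12.6, and Six3, a forebrain and eye gene, reached 37.4 in KO1 against 0 to 3.52. In bulk RNA, fewer expressing cells and less RNA per cell cannot be told apart for any of these differences.

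Over the 37 members that reached 100 normalized counts in at least 1 line, 22 had a range of 8-fold or more over the 6 lines (59.5%), where the share was 20.6% of the 13874 genes at that level. The median range was 18-fold for the members and 2.3-fold for all genes, with median levels of 561 and 1454 normalized counts. Of the 37 members 8 reached 100 normalized counts in a single line only, and all 8 were among the 22. The level asked for thus favours wide ranges in this set. How many of all genes reached it in a single line was not counted, so the shares of members and of all genes may be affected unequally. Without WT6, 11 of the 37 members still spanned 8-fold (29.7%, against 13.0% of all genes), and the median ranges were 2.77-fold and 1.88-fold. WT6 was at least 8-fold below every other line for 7 members (En1, Irx1, Irx2, Irx3, Msx1, Msx2 and Tbx15), or 18.9% against 5.34% of all genes. It was at least 8-fold above every other line for 3 (Pax5, Tbx2 and Tbx20), or 8.11% against 1.51%. These 3, and the genes highest in the other lines below, reached the level of 100 only through the line in which they were high, so nothing is read from those shares. WT4 was lowest by that measure for Pax3 (0.339% of all genes) and highest for Meox2 (0.281%), and KO7 was highest for Alx4 (0.591%). No member had WT2 (0.101% of all genes), KO1 (0.144%), KO3 (0.195%) or KO7 (0.0721%) lowest by that measure, nor WT2 (0.108%), KO1 (0.130%) or KO3 (0.259%) highest. Each line is 1 library, so these are descriptions and no line was tested against another. Between pairs of lines, the median absolute log2 difference over the 35 members tested was 1.14 to 2.53 for pairs with WT6 and 0.45 to 0.81 for pairs without it. Over all genes tested it was 0.62 to 0.72 and 0.38 to 0.50.

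**Figure D2:**
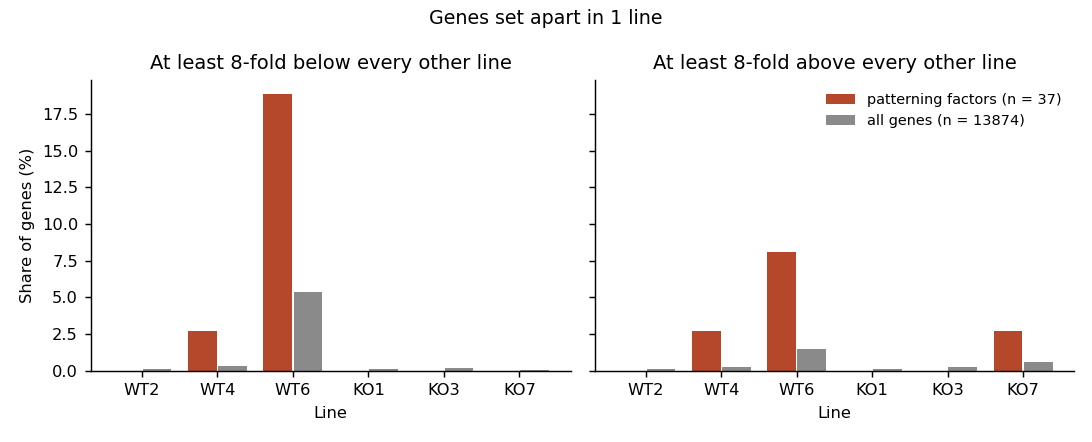
Share of genes (%) for which 1 line lay at least 8-fold below (left) or above (right) every other line on the log2(normalized count + 1) scale, for the 37 patterning genes and the 13874 genes with at least 100 normalized counts in 1 line. WT6 has the tallest bars on both sides, 18.9% and 8.11% of the patterning genes against 5.34% and 1.51% of all genes. The patterning genes counted on the right passed the level only through the line shown. Among all genes this did not hold throughout, as Foxf1, counted for WT6, also had 135 normalized counts in WT2.

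Genes annotated within 5 kb of a member gave a second readout of some loci. The pairs given here were chosen after their values were seen. AI606473, a non-coding gene that starts on the opposite strand beside Lhx8 (chromosome 3, 154330821 to 154334254), had 93.7 normalized counts in WT2, 0 in WT4 and WT6 and 103, 132 and 145 in KO1, KO3 and KO7, the same lines as Lhx8. Gm20554, just upstream of Irx2, had 30.2 to 111 normalized counts in 5 lines and 0 in WT6. Irx3os, antisense to Irx3, had 17.1 and 17.4 normalized counts in WT2 and WT4, 0 in WT6 and 33.5, 44 and 80.4 in KO1, KO3 and KO7, with the highest level in the line where Irx3 was highest. Tbx3os1, which runs antisense across the start of Tbx3, peaked in WT6 at 90.6 normalized counts against 4.79 to 16.5. Slc25a21, a mitochondrial carrier gene whose end overlaps the end of Pax9, had 24.2, 0 and 253 normalized counts in WT2, WT4 and WT6 and 121, 0 and 0 in KO1, KO3 and KO7. Its highest lines were those of Pax9. By contrast Crnde, beside Irx5, kept 87.1 normalized counts in WT6 against 84.6 to 220 elsewhere, and Wars2, beside Tbx15, kept 553 against 508 to 927. The libraries were strand-marked per the kit named in the labels, but whether counting used the strand is not given in the sources used here. Reads of members therefore cannot be told apart from those of opposite-strand genes where these overlap. This holds for Irx3, Tbx3, Pax9, Dlx4, Dlx1, Tbx18, Shox2 and Alx4, among others.

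**Figure D3:**
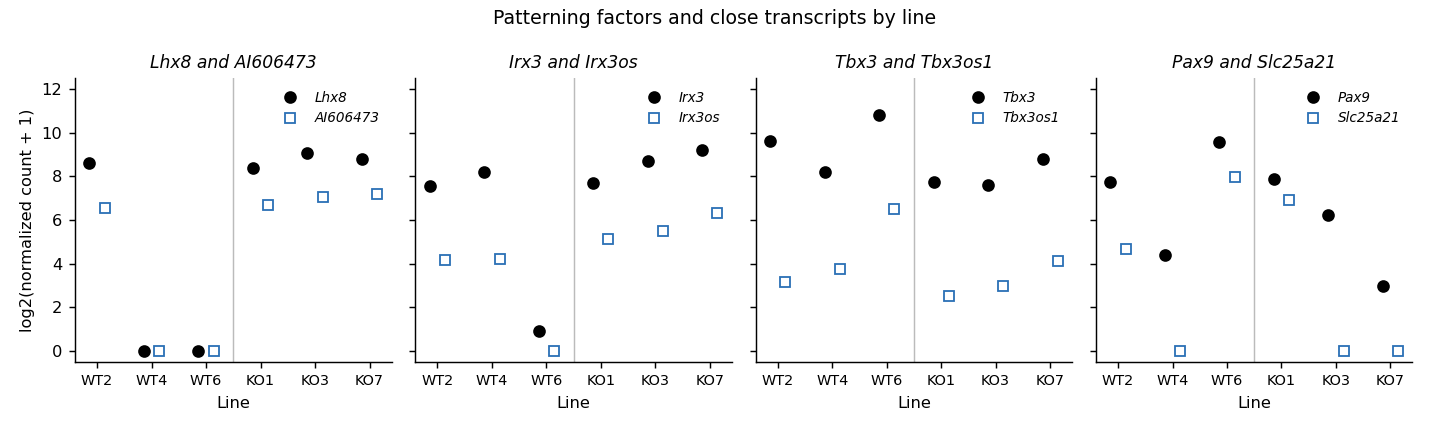
Levels by line, as log2(normalized count + 1), of 4 patterning genes (black circles) and a gene annotated within 5 kb on the other strand (open squares). The 2 symbols are shifted sideways for legibility, and both are at 0 in WT4 and WT6 for Lhx8 and AI606473.

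Between the groups, none of the members tested passed. The test kept 35 of the 71 genes by read count and left out genes read mainly in 1 line, among them Meox2, Tbx20, Alx4 and Dlx3. limma's moderated test on log2(normalized count + 1) called 0 of the 35 at an adjusted p of 0.05 and 1 of 16137 genes in all (0.00620%), with adjusted p from 0.85 to 0.996 for the members. At an unadjusted p under 0.05 it gave 3 members and 4.67% of all genes. edgeR and DESeq2 on the recovered reads also called 0 members, with lowest adjusted p of 0.891 and 0.189, against 0 and 65 of all genes (0.403%). DESeq2 gave no adjusted p for Tbx2 and Pax5, nor for some of the other genes counted in its share, so it could not call these. Of the 35 genes 26 were lower in lines labelled WT, against 50.0% of all genes, and the median difference was −0.51 on the log2 scale against 0 for all genes. Without WT6 it was −0.19, with 23 of 35 lower against 47.8% of all genes, and limma then called 0 members and 5 genes in all (0.0310%). Leaving out WT6 turned the sign of the difference for 7 members, among them Meis1, Meis2, Msx2, Pax5, Prrx2 and Six4. Several of the fibroblast and smooth muscle markers given above also set WT6 apart, and their part in these differences was not tested.

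Groups did not overlap for 3 of the 35 members, all lower in lines labelled WT, where 5.60% of all genes tested did so in that direction, 6.49% in the other and 12.1% in either. Dlx5, a jaw and bone differentiation gene, had 0, 3.86 and 0 normalized counts in WT2, WT4 and WT6 and 58.5, 53.3 and 9.69 in KO1, KO3 and KO7 (means 1.29 ± 2.23 and 40.5 ± 26.8, SD, n = 3). Its log2 difference, WT minus Rag1KO, was −4.26 (SE 1.02, adjusted p 0.85 by limma). Dlx4 had 22.2, 28 and 2.64 normalized counts in WT2, WT4 and WT6 and 134, 159 and 34.9 in KO1, KO3 and KO7, a log2 difference of −2.77, or −1.83 without WT6 (adjusted p 0.85 and 0.983 by limma). Its neighbour Dlx3, 15.2 kb away on chromosome 11 and known for skin, tooth and placenta, had 7.05, 6.76 and 0 normalized counts in WT2, WT4 and WT6 and 25.9, 114 and 0 in KO1, KO3 and KO7, so those groups overlapped. Irx5 was the remaining gene, and its log2 difference went from −1.18 to −0.27 without WT6.

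Among the remaining members, Pbx3, Prrx1 and Lhx6 had log2 differences of −0.05, −0.02 and 0.13, with 95% intervals of −0.56 to 0.46, −0.61 to 0.57 and −0.51 to 0.77. For most members the interval was far wider, at a median of 1.91 to either side, so differences of 2-fold were not detectable for them. Lhx8 had the lowest difference in limma, −5.90 (95% interval −11.75 to −0.05, adjusted p 0.85 by limma), through its 0 counts in WT4 and WT6. Its value was −1.78 by edgeR and by DESeq2, under which Dlx5 was lowest (−4.87 and −4.99), and −8.12 in limma with a pseudocount of 0.1. Tbx3 was higher in lines labelled WT by 1.49 on the log2 scale with all lines and by 0.84 without WT6. En1 and Tbx15 had differences of −3.54 and −2.18 with all lines and −0.08 and −0.21 without WT6, and by edgeR −0.68 and −0.87 with all lines.

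**Figure D4:**
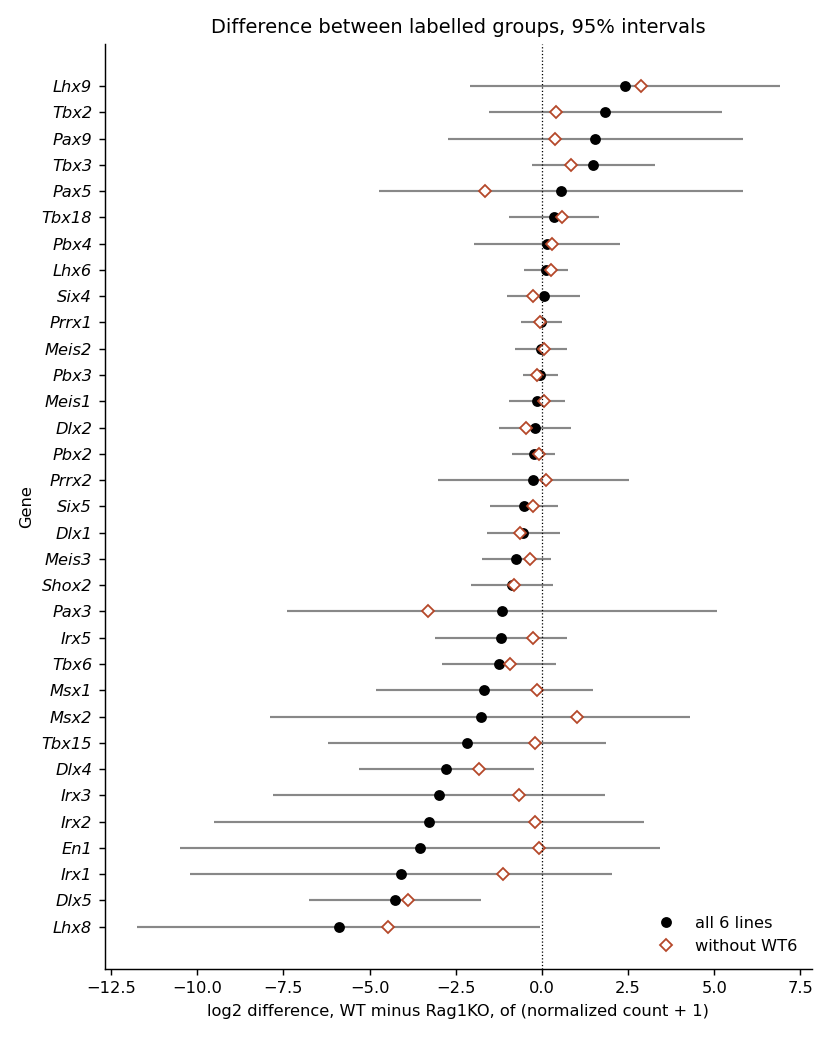
Difference between lines labelled WT and lines labelled Rag1KO on the log2(normalized count + 1) scale for 33 of the 35 patterning genes tested, with all 6 lines (black circles, lines are 95% intervals from limma) and without WT6 (open diamonds). En1, Irx2, Tbx15 and Msx1 lie between −3.54 and −1.67 with WT6 and between −0.21 and −0.08 without it, whereas Dlx5 and Lhx8 lie at −3.88 and −4.47 without it.

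By territory, the lists gave the same counts of calls. Of the 21 limb genes listed 15 were tested, with 0 called in either direction and 12 lower in lines labelled WT (median −0.86 on the log2 scale, −0.06 without WT6). Of the 19 head and pharyngeal genes 11 were tested, with 0 called and 9 lower (median −1.15, −0.47 without WT6). Of the 13 genes of somites and trunk mesoderm 8 were tested, with 0 called and 5 lower (median −0.61, −0.15 without WT6). Of the 15 genes of nervous system, eye, kidney and lymphoid cells only Pax5 had enough reads to be tested. It differed by 0.54 with all lines and by −1.66 without WT6. Over all genes tested the median was 0 and 0.02.

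The cofactors with which these proteins work were mostly expressed in every line. Of 26 cofactor genes found 21 were tested and 0 were called in either direction, with 8 higher and 13 lower in lines labelled WT (median −0.28, 0.02 without WT6). Eya1, a phosphatase and coactivator for Six4 and its relatives, had 28.2, 17.4 and 1002 normalized counts in WT2, WT4 and WT6 and 1.92, 8.11 and 10.7 in KO1, KO3 and KO7. The groups did not overlap, with a log2 difference of 3.59, or 1.78 without WT6. The TALE repressor gene Tgif1 had 5024, 4698 and 12247 normalized counts in WT2, WT4 and WT6 and 3325, 4650 and 2162 in KO1, KO3 and KO7. The Groucho corepressor gene Tle1, partner of engrailed and paired-type proteins, had 1100, 883 and 4740 normalized counts in WT2, WT4 and WT6 and 472, 702 and 720 in KO1, KO3 and KO7. Pbxip1, whose product holds Pbx proteins off DNA, had 8435, 9839 and 3551 normalized counts in WT2, WT4 and WT6 and 9865, 23297 and 13038 in KO1, KO3 and KO7. The groups of Tgif1, Tle1 and Pbxip1 were also separate, for Tgif1 only by 4698 in WT4 against 4650 in KO3. So were those of Ldb1, Tle2 and Tle3, all lower in lines labelled WT. Groups were separate in either direction for 12.1% of all genes tested. The log2 differences of Tgif1 (1.04), Tle1 (1.42) and Pbxip1 (−1.12) had adjusted p of 0.85 by limma. Without WT6 these differences were 0.59, 0.67 and −0.66. Ldb2, which bridges LIM homeodomain proteins, was on in KO7 (1846 normalized counts) and WT6 (241) and at 0 to 8.69 elsewhere. Dach2, a partner of Eya proteins, ranged from 0 in WT2 to 328 in KO7, and Pknox2, a Meis relative, from 77.4 in WT6 to 2851 in KO7.

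Of the 50 other patterning regulators found 25 were tested and 0 were called in either direction, with 11 higher and 14 lower in lines labelled WT (median −0.19, 0.12 without WT6). The lowest p were those of Gli3, Gli2, Foxf1 and Twist2, each with an adjusted p of 0.85 by limma. Gli3 and Gli2 relay Hedgehog signals, and their log2 differences were −0.84 and −1.96. Foxf1, a Hedgehog target in visceral mesenchyme, had 1882 normalized counts in WT6 against 38.2 to 135 elsewhere, and Twist2, a dermal mesenchyme factor, 88.9 in WT6 against 1416 to 2032. Sall1, a kidney and limb factor, had 2251 normalized counts in WT6 and 0 reads in the other 5 lines. Vax2, a ventral eye gene, had 0 in WT6 against 412 to 950, and Gata4, a heart and foregut factor, had 0 in WT6 against 11.6 in KO7 and 168 to 1557 in the other 4. Zic1, of neural tube and dorsal trunk mesoderm, had 2694 and 1325 normalized counts in WT2 and WT4, 0 in WT6 and 1706, 0 and 1979 in KO1, KO3 and KO7. WT6 was the highest line for Foxf1 and Sall1, the lowest for Twist2, Vax2 and Gata4, and shared the absence of Zic1 with KO3. For Gli2, WT6 was lowest at 190 normalized counts, but WT2 was close to it at 206.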

How the data were processed

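Each library's deposited file gives a signal value for each of 55401 genes. From the values, the authors divided whole read counts by 1 size factor per library, since each value over its library's step was whole within 0.01 reads and the factors equal median-of-ratios factors to a relative difference of 5.51e-12. Per the submitters' processing notes, the tools were STAR 2.7.9a, Trim Galore 0.6.6, DESeq2 and FastQC with the mm10 build, and no roles are given. The read counter and annotation are not given in the sources used here.

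Members, gene lists and tests were chosen with earlier results of these data known. All 71 members matched GENCODE M21 by ID, which gave coordinates and exon lengths. The recovered reads served to choose 16137 genes with filterByExpr of edgeR, and limma 3.58.1 (trend option on) was fitted to their log2(value + 1). The contrast was WT minus Rag1KO, the test two-sided, and p-values were adjusted over all of these genes by Benjamini-Hochberg at 0.05. Alternatives were edgeR 4.0.16 (quasi-likelihood, TMM), DESeq2 1.42.0 and limma-voom on recovered reads, 3 other scalings, 2 other filters, a pseudocount of 0.1 and leaving out each library. Folds and ranges over lines used a pseudocount of 1, with 10 as an alternative. Where a line had 0 reads, the lower bound of a fold was instead taken against the normalized counts of 3 reads, without a pseudocount. Named genes were members with a range of 8-fold or more and 100 normalized counts in 1 library, non-overlapping members of lowest p, the most abundant of each family per length and their neighbours within 500 kb; of the cofactor and regulator lists, the 4 of lowest p and the 4 of widest range. Some genes covered by this rule are not reported here, in text or figures. Others named were chosen after their values were seen. The scripts were tested on simulated data with R 4.3.3, and figures used Python 3.11.15 with matplotlib 3.10.9.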

Additional observations from a re-analysis of the deposited data

How the results depend on the processing

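With 3 lines per group and 1 library per line, the spread between lines limits what can be called, and the effect of depth was not tested. No member was called under limma, edgeR, DESeq2, limma-voom, the 3 other scalings, the 2 other filters, the smaller pseudocount or, in limma, with any library left out. Over all genes, limma called 1, edgeR and limma-voom 0 and DESeq2 65, and leaving out 1 library gave 0 to 5, the 5 being without WT6. The median difference of the members, −0.51, was −0.72 to −0.19 with a library left out; without WT6 it was −0.19 and without KO1 −0.72. Members whose groups did not overlap, 3 of 35, numbered 6 of 62 with no filter, 1 of 30 at 1 CPM in 3 libraries and 4 to 12 with a library left out (4 without WT6, 6 without WT2, 12 without WT4, 11 without KO1, 5 without KO3 and 7 without KO7), and groups of fewer lines overlap less readily. Of the 18 genes whose log2 differences were followed, 261 of 265 values kept their direction and their side of the threshold, which says little where adjusted p lay far above 0.05. Lhx8 came near the threshold without WT2, at −8.78 (adjusted p 0.0695 by limma). Sizes moved more: Lhx8 from −5.90 to −1.78, En1 from −3.54 to −0.68 and Tbx15 from −2.18 to −0.87 by edgeR, and Dlx5 from −4.26 to −6.52 with a pseudocount of 0.1. The exceptions were near 0: Pbx3 ranged from −0.16 to 0.04 and Prrx1 from −0.15 to 0.20 with a library left out. At a limit of 1 FPKM-like value in place of 3 reads, members detected were 22 in WT4, 19 in WT6, 25 in KO1 and 24 in KO7. With a pseudocount of 10, chosen after the data were seen for the second count, 20 rather than 22 members spanned 8-fold and 11 rather than 13 had 1 line apart. No paired analysis was possible because the groups share no replicate numbers.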

Other observations

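Some regulators outside the 15 families were read in few lines. These were chosen after their values were seen. Isl1, a LIM homeodomain factor of heart progenitors, hindlimb and motor neurons, had 514 normalized counts in WT6 and 0 reads in the other 5 lines. Hand2, of heart and posterior limb mesenchyme, had 73 normalized counts in KO3, 97.8 in KO7 and 0 reads in KO1 and the lines labelled WT. Sox10, the neural crest and glial factor, had 323 normalized counts in KO7, the line with Alx4, and at most 0.966 elsewhere. Fgf10, the limb outgrowth signal, had 762 normalized counts in WT2, 235 in KO1, 107 in KO7 and 0 to 8.8 in the others.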
